A study of Mus musculus with 24 samples.

Results

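The response of wild-type mouse embryonic fibroblasts to interleukin-1β (IL-1β) was measured by RNA-seq in 6 of the 24 libraries of the series, chosen by their labels. All cells were 3T3 MEFs, a fibroblast line immortalized by passage in culture. The groups compared were 3 libraries of untreated wild-type cells and 3 libraries of wild-type cells given IL-1β at 0.1 ng/mL for 6 h. The other 18 libraries came from *Lkb1*-/- MEFs and from the clones A1 and A2 of *Lkb1*-/-/*Crtc2*-/- MEFs, each untreated or given IL-1β at the same dose and time, with 3 libraries a group. They entered the fit to estimate the spread and were compared with the wild-type response at the end. Wild-type cells are 1 line, and nothing in the sources says that replicates were separate cultures, so p-values measure the spread between these libraries, which may be technical. In bulk RNA, fewer cells with a transcript and less of it per cell cannot be told apart.

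IL-1β binds its receptor IL1R1 with the accessory chain IL1RAP on stromal cells, and the adaptor MYD88 and the kinases IRAK and TAK1 carry the signal to NF-κB and MAP kinases. NF-κB dimers are held in the cytoplasm by IκB proteins until these are degraded, and many of their target genes encode the inhibitors that end the signal. Fibroblasts use this pathway to recruit leukocytes, through chemokines and adhesion molecules, and to remodel matrix.

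The counts on genes lay between 40011408 and 46677840 per wild-type library. Values are given as CPM, counts scaled to each library's TMM-adjusted total, listed for replicates 1, 2 and 3 in that order. *Stk11*, the gene for LKB1, had 86 ± 1.68 CPM (SD, n = 3) before and 84.7 ± 1.48 CPM after IL-1β in wild-type MEFs, against 17.3 ± 1.24 CPM in untreated *Lkb1*-/- libraries. Of 12 fibroblast markers 10 passed the filter on low counts, led by *Vim* and *Col1a1*, and *Thy1* had 0 counts in all 6 libraries. Defining leukocyte, endothelial and epithelial genes were at or near 0 in every wild-type library. *Ptprc* had at most 1 count, *Cdh5* at most 1 and *Krt5* 0. The 12 leukocyte markers summed to between 12.4 and 15.4 CPM untreated and between 20.3 and 27.1 CPM after IL-1β, most of it *Cd14*, a coreceptor for lipopolysaccharide, and *Cd68*, a lysosomal protein. *Cd14* rose from 9.89 ± 0.766 to 18.5 ± 3.18 CPM (log2 fold change 0.90, SE 0.13, edgeR FDR = 0.000308), while *Adgre1* and *Itgam*, which define macrophages, had at most 1 and 2 counts.

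Genes that rose with IL-1β included 11 chemokines, 8 acute-phase and antimicrobial genes, 10 genes of the NF-κB pathway, 6 adhesion molecules and 6 matrix proteases and inhibitors. The gene lists were chosen with earlier results of these data known, so list counts set beside the share of all genes are description only. Fewer genes fell, among them the membrane protein gene *Tmem119*, the cadherin gene *Fat4* and the matrix gene *Thbs1*. Of 17522 genes tested, 2.26% were called at an edgeR FDR under 0.05, 1.53% as higher and 0.731% as lower. These shares come from 396 calls, 128 of them lower, and without untreated replicate 2 the calls were 209, with 44 lower. The libraries of the groups did not overlap for 386 of the 396 called genes, against 18.5% of all genes tested, where 9.39% had every stimulated library higher and 9.11% every stimulated library lower. The calls were made on these same libraries, so the lack of overlap is no separate support. The called genes split by size. Beyond 1 on the log2 scale lay 131 of the 268 higher genes and 29 of the 128 lower genes, and the median of the higher genes was 0.94 and that of the lower genes −0.61, where all genes tested had a median of 0.0042. With the replicate number as a block, 9.3% of genes were called, 824 higher (4.7%) and 805 lower (4.59%), among them all 396, and the genes called with the block and not without it had a median absolute log2 fold change of 0.30 against 0.79. Together the higher genes took 11443 CPM of the untreated and 18236 CPM of the stimulated libraries. Protein-coding genes made up 376 of the 396.

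**Figure D1:**
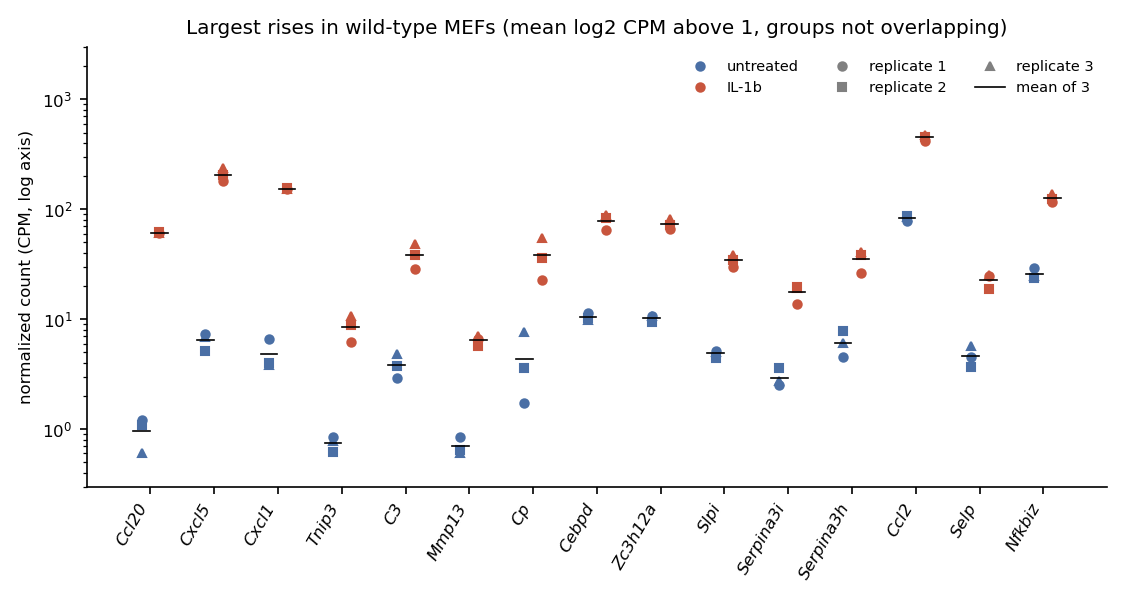
Normalized counts in CPM on a log axis for the 15 called genes with the largest rise among those whose mean log2 CPM exceeded 1 and whose groups did not overlap, one column per gene, with blue points for the 3 untreated and red points for the 3 stimulated wild-type libraries, a marker shape for each replicate number and a line at each mean. Absence of overlap was a condition for being plotted, and *Ccl20* moved from about 1 CPM to a narrow band between 60.7 and 62.2 CPM.

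Chemokines gave the largest changes among genes with a mean log2 CPM above 1. *Nos2* and *Steap4*, with few or no untreated counts, did not meet that condition and are given below. *Ccl20* (chromosome 1, 83116766 to 83119167), the ligand of CCR6 on lymphocytes and dendritic cells, was counted at 1.21, 1.08 and 0.60 CPM in untreated and 61.2, 62.2 and 60.7 CPM in stimulated libraries. The 3 stimulated values lay close together, far above every untreated value (log2 fold change 5.98, SE 0.24, edgeR FDR = 5.74e-10). *Cxcl5* (chromosome 5, 90759360 to 90761624), a ligand of the neutrophil receptor CXCR2, stood at 7.3, 5.09 and 6.86 CPM untreated and 179, 204 and 237 CPM after IL-1β. It was lowest in replicate 1 and highest in replicate 3 of the stimulated libraries, without overlap between the groups (log2 fold change 5.01, SE 0.20, edgeR FDR = 1.54e-12). *Cxcl1* (chromosome 5, 90891241 to 90893115), which binds the same receptor, went from 6.63, 3.96 and 3.86 to 153, 157 and 152 CPM, again without overlap (log2 fold change 4.99, SE 0.23, edgeR FDR = 4.79e-12). Per kilobase of annotated exon, with all exons of a gene merged, stimulated *Cxcl5* and *Cxcl1* stood at 111 and 82.2 CPM per kb, and *Ccl20* at 43.2. *Ccl2* (chromosome 11, 82035571 to 82037453), the main monocyte attractant, was already at 78.1, 86.6 and 84.3 CPM in untreated cells and reached 420.3, 453 and 479 CPM (log2 fold change 2.44, SE 0.11, edgeR FDR = 4.47e-12). With 396 CPM per kb it was the most abundant of these 4 transcripts after stimulation. Its neighbor *Ccl7* on chromosome 11, with the same receptor, rose from 17.9 ± 2.95 to 71.3 ± 11.1 CPM (log2 fold change 1.99, SE 0.15, edgeR FDR = 3.44e-08).

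In all, 3 of 5 tested ELR+ CXC chemokines, 3 of 6 other CXC and CX3C chemokines and 5 of 11 tested CC chemokines were called higher, against 1.53% of all genes, and none was called lower. The third ELR+ gene was *Cxcl2*, with 0 counts in each untreated library and 19, 32 and 23 counts after IL-1β, which is at least 8.45-fold higher with a limit of 3 counts for each empty library. *Cxcl10*, *Cxcl11* and *Cxcl16* made up the second group, and *Cxcl11*, annotated as a polymorphic pseudogene and at few counts, was lost without untreated replicate 1 or 2 or stimulated replicate 3 (edgeR FDR up to 0.103). *Cxcl10*, a ligand of CXCR3 on T cells, stood at 5.07, 7.32 and 14.7 CPM untreated and 19, 26.8 and 68.2 CPM after IL-1β. It was highest in replicate 3 in either group, and the lowest stimulated value stood above the highest untreated one (log2 fold change 2.08, SE 0.38, edgeR FDR = 0.00245), though it was not called with the wild-type libraries alone (edgeR FDR = 0.11). *Ccl5* rose from 0.72 ± 0.484 to 3.66 ± 1.12 CPM (log2 fold change 2.36, SE 0.47, edgeR FDR = 0.00565) and *Ccl8* rose at under 1 CPM. Both calls were lost without untreated replicate 2, which left 3 CC chemokines (edgeR FDR of 0.0602 for *Ccl5* and up to 0.189 for *Ccl8* when 1 library was left out). The chemokine genes *Ccl3*, *Ccl12*, *Ccl19* and *Ccl22* had no count in any wild-type library.

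The inhibitors and coactivators of the pathway itself rose next. Of 20 tested NF-κB subunits, IκB proteins and feedback genes, 10 were called higher and 0 lower, against 1.53% of all genes called higher, with a median log2 fold change of 0.37. The count was 6 without untreated replicate 3 and 13 with the replicate block. *Nfkbiz* (chromosome 16, 55811375 to 55838899) encodes IκBζ, a nuclear coactivator that many secondary NF-κB targets need, and stood at 29.1, 23.6 and 24.8 CPM untreated and 117, 124 and 138 CPM after IL-1β. The lowest stimulated value stood well above the highest untreated one (log2 fold change 2.29, SE 0.12, edgeR FDR = 4.35e-11). *Nfkbia*, the classical IκBα, went from 59.3, 60.2 and 48.1 to 125, 144 and 138 CPM (log2 fold change 1.28, SE 0.11, edgeR FDR = 3.70e-07). *Tnfaip3*, the ubiquitin-editing enzyme A20 that shuts the pathway off, went from 16.9, 17.9 and 15.9 to 42.7, 43.6 and 43.7 CPM, a difference many times the spread within either group (log2 fold change 1.36, SE 0.13, edgeR FDR = 1.67e-06). *Tnip3*, a partner of A20, rose from 0.751 ± 0.117 to 8.55 ± 2.24 CPM (log2 fold change 3.50, SE 0.31, edgeR FDR = 3.56e-07), and *Bcl3*, a nuclear IκB, rose from 16.7 ± 2.86 to 45.4 ± 8.54 CPM (log2 fold change 1.44, SE 0.22, edgeR FDR = 0.000428). Among subunits *Nfkb1* rose from 135 ± 1.08 to 231 ± 9.44 CPM (log2 fold change 0.78, SE 0.09, edgeR FDR = 1.34e-05) and *Relb* rose by 0.55 (SE 0.12, edgeR FDR = 0.011, and 0.0519 without untreated replicate 3). For *Rel* the log2 fold change was 0.32 (edgeR FDR = 0.101, or 0.000433 with the replicate block).

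Upstream of NF-κB the receptor gene *Il1r1* had 82.7 ± 10.3 CPM before and 90.9 ± 16 CPM after IL-1β (log2 fold change 0.14, SE 0.14, edgeR FDR = 0.82), and none of the *Irak*, *Tab* and *Traf6* genes was called. Of 21 tested genes of IL-1 ligands, receptors and proximal signaling, 3 were called higher, against 1.53% of all genes, *Il1rl1*, *Map3k8* and *Il1a*, and 6 with the block. *Il1rl1*, the receptor of IL-33, stood at 250.2, 221 and 197 CPM untreated and 497, 486 and 441 CPM after IL-1β, without overlap (log2 fold change 1.09, SE 0.19, edgeR FDR = 0.00131). *Map3k8*, a kinase that links NF-κB to ERK, rose from 5.24 ± 0.325 to 9.86 ± 1.57 CPM (log2 fold change 0.91, SE 0.16, edgeR FDR = 0.00181). *Il1a* had 0 counts in untreated libraries and 13, 11 and 8 after IL-1β, at least 3.66-fold higher, a call lost without untreated replicate 2 (edgeR FDR = 0.0635) and with DESeq2. *Il1rap* had a log2 fold change of 0.38 (edgeR FDR = 0.0889, or 0.00894 with the replicate block). *Il1b* itself had no count in any of the 6 libraries.

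The promoters of the higher genes held an NF-κB motif in a larger share than those of all genes tested. The RefSeq windows (GRCm38.p6) run from 250 bases before to 50 bases after a start and were found by symbol for 188 of the 268 higher genes, with 235 windows, and for 93 of the 128 lower genes, with 119 windows. The NF-κB motif searched, GGG, then any 2 bases, then TTTCC, on either strand, was in 22 of the 235 windows of higher genes (9.36%), in 15 of 104 windows of those beyond 1 on the log2 scale (14.4%), in 1 of 119 windows of lower genes (0.84%) and in 239 of the 13900 windows of all genes tested (1.72%). TGANTCA, the AP-1 motif, was in 12.8% of windows of higher, 10.1% of lower and 5.6% of all genes tested, and TGACGTCA, the CRE, in 3.4%, 0.84% and 2.93%. A match describes these letters and is not a measured site. The NF-κB motif was in a window of 19 of the 188 higher genes, and only windows with a match were printed. The 120 bases before the start are shown for 3 chemokines, for *Il6* and for 2 inhibitors that rose, with the letters that match this motif or its reverse complement in capitals. They are *Ccl20* (chr1:83116646-83116765, + strand), *Cxcl1* (chr5:90891125-90891244, + strand), *Cxcl2* (chr5:90903779-90903898, + strand), *Il6* (chr5:30012994-30013113, + strand), *Nfkbia* (chr12:55492648-55492767, − strand) and *Tnfaip3* (chr10:19015411-19015530, − strand).
Ccl20: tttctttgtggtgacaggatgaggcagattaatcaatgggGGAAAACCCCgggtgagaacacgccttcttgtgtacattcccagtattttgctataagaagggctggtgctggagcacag
Cxcl1: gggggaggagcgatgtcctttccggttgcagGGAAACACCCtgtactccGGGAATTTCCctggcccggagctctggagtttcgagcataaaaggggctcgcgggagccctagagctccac
Cxcl2: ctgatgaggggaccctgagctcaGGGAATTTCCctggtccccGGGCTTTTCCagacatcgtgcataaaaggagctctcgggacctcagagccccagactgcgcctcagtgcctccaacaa
Il6: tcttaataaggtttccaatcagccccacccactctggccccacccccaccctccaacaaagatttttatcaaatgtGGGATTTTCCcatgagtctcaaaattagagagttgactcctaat
Nfkbia: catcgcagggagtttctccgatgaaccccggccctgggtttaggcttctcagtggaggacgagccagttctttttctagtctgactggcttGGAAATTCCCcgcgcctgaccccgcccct
Tnfaip3: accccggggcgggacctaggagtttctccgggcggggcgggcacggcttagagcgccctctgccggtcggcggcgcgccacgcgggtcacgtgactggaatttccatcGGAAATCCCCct
*Cxcl1* and *Cxcl2* each carry a pair of matches close together in these bases, and the others 1 match each. The matches of *Nfkbia* and *Tnfaip3*, which rose by 1.28 and 1.36 on the log2 scale, lie closest to the start.

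Secreted defense proteins formed the next group. Of 13 tested acute-phase and antimicrobial genes, 8 were called higher and 0 lower, against 1.53% of all genes called higher, between 6 and 9 when 1 library was left out. *Cp*, the copper-binding ferroxidase ceruloplasmin, stood at 1.74, 3.57 and 7.72 CPM untreated and 22.9, 36.2 and 55.2 CPM after IL-1β. Replicate 3 was the highest of either group, and the groups did not overlap (log2 fold change 3.15, SE 0.50, edgeR FDR = 0.000607). *Slpi*, a protease inhibitor of mucosal surfaces, went from 5.16, 4.47 and 5.06 to 30.2, 34.5 and 38.5 CPM (log2 fold change 2.81, SE 0.30, edgeR FDR = 4.52e-06). The neighboring genes *Serpina3i*, a serine protease inhibitor, and *Serpina3h*, annotated as a transcribed pseudogene, lie on chromosome 12 with close paralogs whose reads the counting could split. They rose by 2.58 and 2.51 on the log2 scale (edgeR FDR = 4.29e-06 and 4.02e-06). *Ptx3*, a pentraxin that opsonizes microbes, rose from 58.4 ± 8.27 to 149.9 ± 24.3 CPM (log2 fold change 1.36, SE 0.24, edgeR FDR = 0.00215). *Lcn2*, which withholds siderophore-bound iron from bacteria, had 0 untreated counts and 1.11, 5.63 and 5.25 CPM after IL-1β, at least 55.9-fold higher and lowest in replicate 1 (edgeR FDR = 0.000347). *Saa3*, a serum amyloid A of extrahepatic tissue, was listed at 0.0223, 0 and 0.0261 CPM untreated and 0.741, 4.65 and 3.41 CPM stimulated, and was called (edgeR FDR = 0.0217), but not in 5 of the 6 leave-one-out fits, all but that without stimulated replicate 1.

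Among complement genes 3 of 13 tested were called higher and 0 lower, where 1.53% of all genes were higher. *C3* (chromosome 17, 57203970 to 57228136), the central component, stood at 2.9, 3.73 and 4.83 CPM untreated and 28.8, 38.6 and 48.3 CPM after IL-1β, without overlap and with replicate 3 highest in either group (log2 fold change 3.344, SE 0.28, edgeR FDR = 1.38e-07). *C1s1*, a protease of the classical pathway, rose from 1.85 ± 0.621 to 7.29 ± 2.19 CPM (log2 fold change 1.99, SE 0.36, edgeR FDR = 0.00262), and *Serping1*, its inhibitor, was called at under 1 CPM, though not without untreated replicate 1 or 2 or stimulated replicate 3. *C1ra*, the partner protease, had a log2 fold change of 1.20 (edgeR FDR = 0.0642, or 8.96e-06 with the replicate block). The genes *Cfb*, *C6* and *C5ar1* had at most 1 count.

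Of 14 tested genes of nitric oxide and arginine metabolism, *Nos2* and *Gch1* were called, where 1.53% of all genes were higher. *Nos2*, inducible nitric oxide synthase, had no count in any untreated library and 7.8, 18.6 and 26.6 CPM after IL-1β, lowest in replicate 1 (edgeR FDR = 1.02e-06). That is at least 247-fold higher with the limit of 3 counts for each empty library. *Gch1*, which makes the cofactor tetrahydrobiopterin of that enzyme, rose from 2.4 ± 0.583 to 6.62 ± 1.65 CPM (log2 fold change 1.47, SE 0.25, edgeR FDR = 0.00145). Of 15 tested zinc and iron genes 4 were called higher and 0 lower, against the same 1.53%, and with the block 7 and 1. *Slc11a2*, the divalent metal transporter DMT1, went from 61.6, 53.9 and 54.4 to 154, 155 and 161 CPM, with groups far apart (log2 fold change 1.47, SE 0.08, edgeR FDR = 7.84e-11). *Mt2*, a metallothionein that binds zinc, rose from 76.2 ± 6.94 to 249 ± 30.2 CPM (log2 fold change 1.71, SE 0.15, edgeR FDR = 1.75e-07), and for its paralog *Mt1* the log2 fold change was 0.59 (edgeR FDR = 0.0576, or 8.20e-05 with the replicate block). *Steap4*, a metalloreductase, was at 0, 0.046 and 0 CPM untreated, 2 counts in all, and at 6.81, 16.2 and 11 CPM stimulated (edgeR FDR = 3.37e-06).

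The growth factor, cytokine and prostaglandin lists each held 1 or 2 calls, against 1.53% of all genes called higher. In the IL-6 family *Il6* and *Lif* were called of 6 tested genes. *Il6* was at 0.067, 0.138 and 0.156 CPM untreated and 2.49, 4.44 and 4.24 CPM stimulated, and per kilobase it stood at 1.53 CPM per kb, against 111 for *Cxcl5*. Of 5 colony-stimulating factors *Csf3*, which drives the production of neutrophils, was called and rose from 0.344 ± 0.107 to 5.24 ± 1.11 CPM (log2 fold change 3.93, SE 0.50, edgeR FDR = 3.94e-05). *Csf1*, the macrophage growth factor, stood at 210.0, 187 and 177 CPM untreated and 285, 277 and 272 CPM after IL-1β without overlap, and was not called by the unpaired fit (edgeR FDR = 0.072) but was with the block (7.28e-05), with DESeq2, with no filter and with the wild-type libraries alone. *Ereg*, a ligand of the EGF receptor, rose from 50.6 ± 13 to 133 ± 16.6 CPM (log2 fold change 1.39, SE 0.21, edgeR FDR = 0.000318) and was the only one called of 12 VEGF and EGF receptor ligands. *Ptgs2*, the inducible cyclooxygenase COX-2, stood at 173, 118 and 97.8 CPM untreated and 389.9, 334 and 284 CPM after IL-1β, highest in replicate 1 in either group (log2 fold change 1.38, SE 0.26, edgeR FDR = 0.00292), and was the only one called of 9 tested prostaglandin genes. *Fas*, a death receptor, and *Tnfrsf9*, the costimulatory receptor 4-1BB, rose by 2.08 and 1.94 (edgeR FDR = 5.06e-05 and 1.47e-05) and were the 2 called of 13 tested genes of the TNF superfamily.

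Surface and matrix genes followed. Of 12 tested adhesion molecules 6 were called higher and 1 lower, against 1.53% and 0.731% of all genes, and 7 calls were made in each fit that left out 1 library. *Vcam1*, which binds leukocyte integrins, stood at 125, 124 and 124 CPM untreated and 245, 273 and 277 CPM after IL-1β (log2 fold change 1.09, SE 0.21, edgeR FDR = 0.00337). *Sdc4*, a heparan sulfate proteoglycan, went from 394, 368 and 388 to 699.7, 698 and 663 CPM (log2 fold change 0.84, SE 0.09, edgeR FDR = 5.77e-06), and *Selp*, P-selectin, rose from 4.64 ± 1.02 to 22.9 ± 3.67 CPM (log2 fold change 2.31, SE 0.24, edgeR FDR = 6.94e-06). *Icam1* rose by 3.84 (SE 0.56, edgeR FDR = 0.000231) but stayed at or below 1.09 CPM. Of 29 tested matrix proteases and inhibitors 6 were called higher and 0 lower, against 1.53% of all genes called higher, 3 without stimulated replicate 3, and 10 higher and 3 lower with the block. The secreted metalloproteinase genes *Mmp3* (stromelysin), *Mmp10* and *Mmp13* (a collagenase), all in the *Mmp* cluster of chromosome 9, rose by 1.96, 3.70 and 3.20 on the log2 scale (edgeR FDR = 0.000778, 0.000308 and 0.0202). The *Mmp13* call was lost in 5 of the 6 leave-one-out fits, all but that without stimulated replicate 2. *Timp1*, an inhibitor of these enzymes, stood at 93.4, 78.1 and 69.1 CPM untreated and 137, 142 and 123 CPM after IL-1β, without overlap (log2 fold change 0.74, SE 0.13, edgeR FDR = 0.00187). For *Timp2* the log2 fold change was -0.36 (edgeR FDR = 0.177, or 0.00189 with the replicate block).

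Some regulators of mRNA and transcription were called, where 1.53% of all genes were higher. *Zc3h12a*, the endonuclease Regnase-1 that cuts *Il6* and other cytokine mRNAs, stood at 10.8, 9.49 and 10.6 CPM untreated and 66.3, 71.7 and 82.2 CPM after IL-1β (log2 fold change 2.83, SE 0.16, edgeR FDR = 2.93e-10). It was 1 of 4 called of 14 mRNA decay and feedback genes, and the one that stayed called without untreated replicate 2 or stimulated replicate 2. *Cebpd* and *Cebpb*, transcription factors of acute-phase genes, were 2 of 5 C/EBP genes called. *Cebpd* went from 11.4, 10.3 and 9.75 to 64.2, 82.6 and 89.5 CPM (log2 fold change 2.91, SE 0.24, edgeR FDR = 8.97e-08), and *Cebpb* rose by 0.91 (SE 0.22, edgeR FDR = 0.0265), but was not called in 4 of the 6 leave-one-out fits, all but those without untreated replicate 3 or stimulated replicate 1. *Ier3*, an immediate-early gene tied to survival, was at 40.3, 34.6 and 40.3 CPM untreated and 145, 151 and 146 CPM stimulated (log2 fold change 1.94, SE 0.08, edgeR FDR = 3.07e-12). Of 18 tested AP-1 and immediate-early genes *Ier5* and *Atf3* were called higher, by 0.39 and 0.51, of which *Atf3* was lost in each fit that left out 1 library (edgeR FDR up to 0.113), and 6 were higher and 2 lower with the block. *Fos* and *Jun* were called with the block and not without it (log2 fold change -0.79 and 0.37, edgeR FDR without the block = 0.437 and 0.0882).

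**Figure D2:**
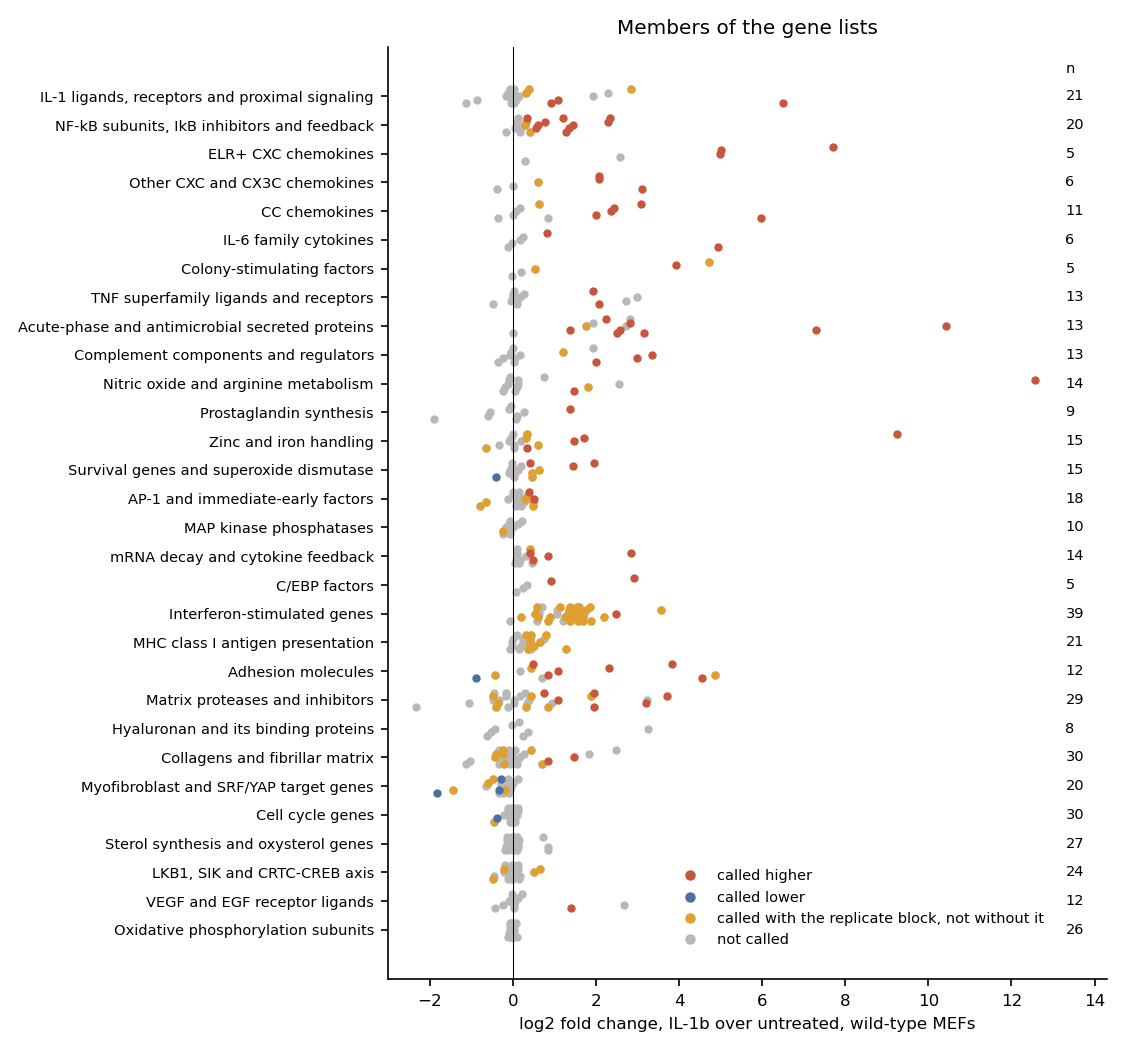
Log2 fold change of each tested member of the 30 response lists, one row per list with its number of tested members at the right, in red where called higher, blue where called lower, orange where called with the replicate block and not without it and gray otherwise. Chemokines and acute-phase genes spread to the right, interferon-stimulated genes form an orange cloud, and oxidative phosphorylation genes stay near 0. Values beyond about 6 belong to genes with few or no untreated counts and depend on the prior count.

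No member was called of several lists, where 2.26% of all genes were called. They were 26 oxidative phosphorylation subunits, 27 sterol and oxysterol genes, 24 genes of the LKB1, SIK and CRTC-CREB axis, 10 MAP kinase phosphatases and 8 hyaluronan genes. At an unadjusted edgeR p under 0.05 they held 0, 1, 7, 2 and 3 members, where 11.4% of all genes passed. DESeq2 called 0, 1, 2, 1 and 0 and 3.84% of all genes, and the block called 0, 0, 4, 1 and 0 and 9.3% of all genes. The oxidative phosphorylation subunits lay between −0.12 and 0.09 on the log2 scale. In the LKB1 axis *Sik1*, a salt-inducible kinase, had a log2 fold change of 0.50 and *Pde4d*, a cAMP phosphodiesterase, of -0.48. Both were called with the replicate block (edgeR FDR = 0.00086 and 0.00076) and with the wild-type libraries alone (0.0276 and 0.045), but not by the unpaired fit of all libraries (0.0755 and 0.186). *Pde4b*, a paralog of *Pde4d*, and *Cab39l* were also called with the block and not by that unpaired fit. *Cdkn1b*, the cell cycle inhibitor p27, fell by 0.38 in log2 units (SE 0.09, edgeR FDR = 0.0175) and was the only call of 30 cell cycle genes in the unpaired fit, lost without untreated replicate 2 or stimulated replicate 1 or 2. With the block 2 of the 30 were called lower.

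Interferon-stimulated genes differed more between replicate 3 and replicate 1 than between treatments. *Ifit1*, an RNA sensor that blocks viral translation, was counted at 3.8, 5.69 and 24.4 CPM in untreated and 9.31, 21.2 and 78.6 CPM in stimulated libraries. Replicate 3 was the highest of either group, and the untreated library of replicate 3 stood above the stimulated libraries of replicates 1 and 2, so the groups overlapped. Within each replicate number IL-1β gave the higher value. *Isg15*, a ubiquitin-like modifier, followed the same order at 3.3, 5.43 and 25.1 CPM untreated and 8.69, 19.1 and 72.7 CPM stimulated, as did *Oasl2*, an oligoadenylate synthetase-like gene, at 2.72, 4.72 and 29.6 and 9.16, 22.3 and 87.9 CPM. *Gbp2*, a guanylate-binding GTPase, was at 2.97, 4.83 and 10.3 CPM untreated and 9.5, 26.4 and 45.2 CPM stimulated.

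Across the 39 tested genes of the list, untreated replicate 3 exceeded untreated replicate 1 in 39, by a median of 2.50 on the log2 scale, and stimulated replicate 3 exceeded stimulated replicate 1 in 39, by a median of 2.32. Replicate 2 lay above replicate 1 by medians of 0.58 untreated and 0.71 stimulated. The stimulated library was above the untreated library of its number in all 3 pairs for 38 of the 39 genes, against 24.8% of all genes tested, with medians of 1.38, 1.34 and 1.22 in pairs 1, 2 and 3. Their summed counts ran from 428 to 1157 CPM in the untreated and from 655 to 2301 CPM in the stimulated libraries. The unpaired fit called 1 of the 39, *Gbp3* (log2 fold change 2.48, SE 0.64, edgeR FDR = 0.0432), which was lost in 4 of the 6 leave-one-out fits, all but those without untreated replicate 3 or stimulated replicate 1. With the replicate number as a block it called 28 higher and 0 lower, where the block called 4.7% of all genes as higher. The unpaired fit with no filter on low counts called 37 of these same 39 higher, and 1.39% of all genes. *Gbp2* had an edgeR FDR of 0.0719 without and 1.90e-06 with the block, *Rsad2*, the antiviral enzyme viperin, 0.0596 and 0.000125, *Usp18*, a feedback protease, 0.252 and 0.0124, *Ifit1* 0.224 and 0.0138, and *Irf7*, a transcription factor of interferon genes, 0.394 and 0.00163. Left out in turn, untreated replicate 3 raised the unpaired count to 25 and the median log2 fold change of the list from 1.37 to 2.61, and 0 calls remained without untreated replicate 1, untreated replicate 2 or stimulated replicate 3. Without both wild-type libraries numbered 3, an alternative chosen after seeing the data, 12 were called higher, with a median log2 fold change of 1.47 over the list. The part of replicate number in this result was not tested beyond these fits.

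**Figure D3:**
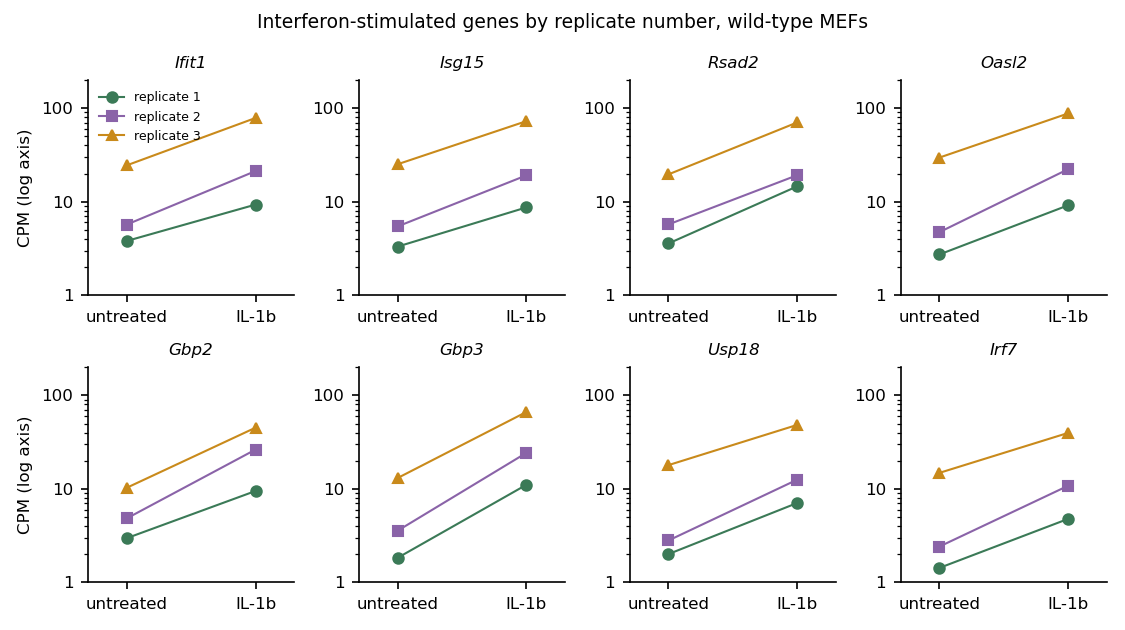
Normalized counts in CPM on a log axis for 8 interferon-stimulated genes in untreated and IL-1β-stimulated wild-type libraries, with a line joining libraries of the same replicate number. Each line rises, and replicate 3 lies above replicates 1 and 2 throughout, with *Ifit1* at 24.4 CPM before and 78.6 CPM after IL-1β.

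Antigen presentation by MHC class I showed the same order of replicates with smaller differences. None of 21 genes was called by the unpaired fit (5 at an unadjusted p under 0.05, against 11.4% of all genes, and 1 by DESeq2, against 3.84%). With the block 9 were called higher, where 4.7% of all genes were, and as many without the block when no filter on low counts was used, where 1.39% were. Untreated replicate 3 exceeded untreated replicate 1 in 21 of 21. *H2-K1*, a class I heavy chain, stood at 135, 160.1 and 195 CPM untreated and 169.9, 213 and 275 CPM after IL-1β, with overlapping groups and a blocked log2 fold change of 0.42 (edgeR FDR = 0.00115). *H2-D1*, whose reads can be shared with *H2-K1* and other class I paralogs, had 0.40 (edgeR FDR = 0.00466).

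The genes that fell were fewer and their median change smaller. *Tmem119* (chromosome 5, 113793729 to 113800516), a membrane protein of bone-forming and mesenchymal cells, was counted at 5.29, 12.1 and 11.8 CPM in untreated and 1.8, 2.97 and 2.59 CPM in stimulated libraries. Every stimulated value lay below every untreated one, and replicate 1 was the lowest of either group (log2 fold change -1.99, SE 0.31, edgeR FDR = 0.000527). *Thbs1* (chromosome 2, 118111876 to 118127133), the matrix protein thrombospondin-1, was the most abundant of the 15 plotted genes that fell, at 237, 333 and 278 CPM untreated and 98.9, 122 and 107 CPM stimulated (log2 fold change -1.37, SE 0.24, edgeR FDR = 0.00191). *Fat4* (chromosome 3, 38886940 to 39011985), an atypical cadherin, went from 38.7, 87.2 and 72.3 to 12.3, 31.8 and 22.9 CPM (log2 fold change -1.56, SE 0.34, edgeR FDR = 0.0134), and was not called without untreated replicate 2 or stimulated replicate 1, with an edgeR FDR of up to 0.102, or with the wild-type libraries alone (0.0888). *Ldb3*, a Z-disc protein, *Mcam*, an adhesion molecule of perivascular cells, and *Arc*, an immediate-early gene, fell by 1.53, 0.89 and 0.94 on the log2 scale (edgeR FDR = 0.0013, 0.00345 and 0.000234) and stayed called in each fit that left out 1 library. With the wild-type libraries alone *Mcam* was not called (edgeR FDR = 0.115). *Jup*, the junction protein plakoglobin, fell by 0.88 (edgeR FDR = 0.027), and was called only without untreated replicate 1 or stimulated replicate 3 among the 6 leave-one-out fits. It was not called with the wild-type libraries alone either (edgeR FDR = 0.0501).

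**Figure D4:**
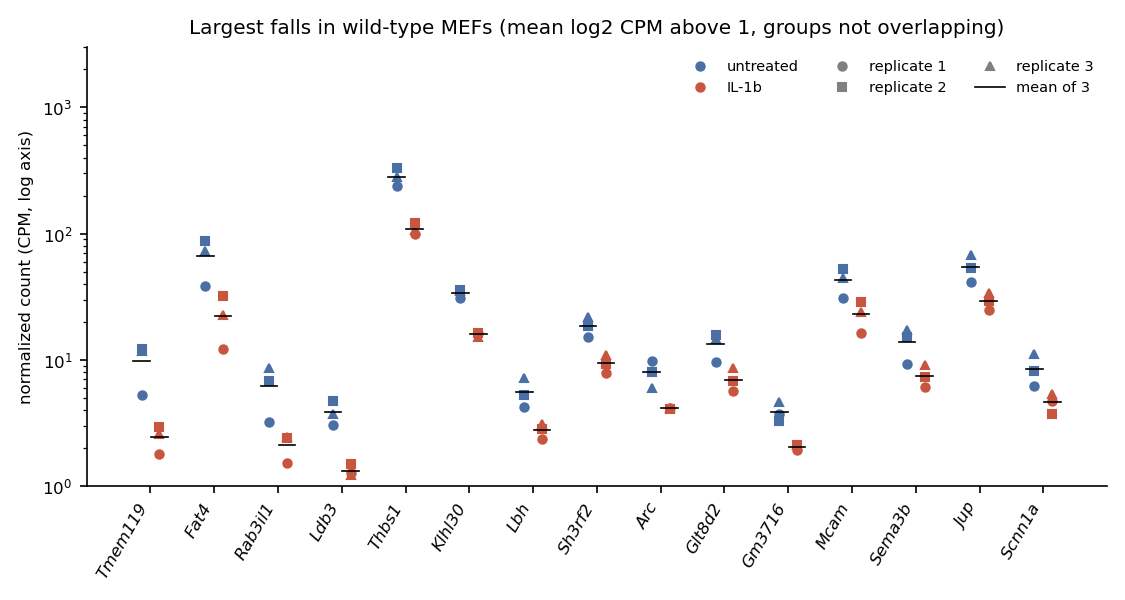
Normalized counts in CPM on a log axis for the 15 called genes with the largest fall under the same conditions on mean level and overlap, drawn as in the plot of the genes with the largest rise. The falls run from *Tmem119* with -1.99 on the log2 scale to *Scnn1a* with -0.88. Of the 6 leave-one-out fits, the call was lost for *Klhl30* in 6 and for *Rab3il1* in 3. It was lost in 4 for *Glt8d2*, *Gm3716*, *Jup*, *Scnn1a*, *Sema3b* and *Sh3rf2*, and in 2 for *Fat4*.

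A few contractile genes fell. Of 20 tested myofibroblast and SRF/YAP target genes 3 were called lower and 0 higher, against 0.731% of all genes, and 17 were lower in all 3 pairs, against 24% of all genes. *Tpm2*, a tropomyosin, *Lmod1*, a leiomodin that nucleates actin, and *Srf*, serum response factor, fell by 0.29, 1.83 and 0.33 on the log2 scale (edgeR FDR = 0.0482, 0.0431 and 0.039). The number was between 0 and 2 when 1 library was left out, 0 without untreated replicate 2 or any one stimulated library, and 7 with the block. *Cnn2*, a calponin, stood at 476, 497 and 489 CPM untreated and 344, 355 and 345 CPM after IL-1β, without overlap, and was not called by the unpaired fit (edgeR FDR = 0.0835) but was with the block (0.00102), with DESeq2, upper quartile scaling or either other filter and with the wild-type libraries alone.

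Of 30 tested collagen and fibrillar matrix genes *Col5a3* and *Tnc* were called higher and 0 lower, against 1.53% of all genes called higher. *Col5a3*, a minor chain of collagen V, went from 33.1, 24.6 and 33.5 to 87.5, 78.9 and 83.9 CPM (log2 fold change 1.46, SE 0.19, edgeR FDR = 6.00e-05). *Tnc*, tenascin-C, rose from 60.3 ± 4.95 to 108 ± 14.6 CPM (log2 fold change 0.84, SE 0.17, edgeR FDR = 0.00612) and was not called without untreated replicate 3 (edgeR FDR = 0.0606). *Col1a1*, the main chain of collagen I, was at 1859.5, 2811 and 2463 CPM untreated and 1423, 2177 and 1796 CPM stimulated. Each stimulated value was below the untreated value of its number although the groups overlapped, and the difference was called with the block (log2 fold change -0.40, edgeR FDR = 0.00397) and not without it (0.488). With the block 4 genes of this list were called higher and 5 lower.

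The wild-type response was then set beside those of the other genotypes, which were tested as interactions of genotype and treatment. The 3 tests share the wild-type libraries. The responses differed for 0.245% of genes between *Lkb1*-/- and wild-type MEFs, 0.0799% between clone A1 and wild-type, and 0.365% between clone A2 and wild-type. With a block within each genotype the shares were 5.72%, 3.19% and 5.82%. Of the 396 genes called in wild-type MEFs, 14, 10 and 24 had a called difference. Of the genes higher in wild-type MEFs, 60.4% were called higher in *Lkb1*-/- MEFs, where they made up 34.9% of the calls, with 40.3% and 51.4% in clone A1 and 59.3% and 32.3% in clone A2. The genes called higher there were 464, 210 and 493 of the 17522 tested. Of the genes lower in wild-type MEFs, 35.2%, 21.1% and 36.7% were called lower in *Lkb1*-/-, A1 and A2 cells, where they made up 12.3%, 19.6% and 9.36% of the 367, 138 and 502 lower calls.

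*C3* had the larger log2 fold change in wild-type MEFs, but the lower level before and after IL-1β. Its log2 fold change of 3.344 there compared with 1.22, 0.77 and 1.73 in *Lkb1*-/-, clone A1 and clone A2 cells, from untreated means of 156, 137 and 109.7 CPM against 3.82 CPM in wild-type. Stimulated means were 364, 233 and 364 CPM in those cells against 38.6 CPM in wild-type. The difference was called against *Lkb1*-/- (edgeR FDR = 0.008) and clone A1 (0.00169), and against clone A2 with a block within each genotype (2.75e-09) but not without it (0.0533). *Afap1l2*, an actin-associated adaptor, fell by 0.68 (log2) in wild-type MEFs and had log2 fold changes of 1.04, 1.11 and 0.93 in the others, a difference called against each (edgeR FDR = 0.000352, 0.000264 and 0.000389). *Tbx3*, a T-box repressor, had -0.18 in wild-type (edgeR FDR = 0.403) and 1.31, 0.63 and 1.27 in the others. *Hmgcs1*, of the cholesterol pathway, stood at 522, 751 and 684 CPM untreated and 589, 802 and 706 CPM after IL-1β in wild-type, and its response there was 0.10 against -1.25 in *Lkb1*-/- MEFs (edgeR FDR of the difference 0.00779).

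*Ccl20*, which led the rise among genes with a mean log2 CPM above 1 in wild-type MEFs, was near 0 in the other genotypes. Its stimulated wild-type mean was 61.4 CPM, and it had 0 counts in all 6 *Lkb1*-/- libraries and stimulated means of 0.105 and 0.0152 CPM in clones A1 and A2. With no counts in *Lkb1*-/- MEFs the test of the difference of responses has no information there, and its edgeR FDR was 1. *Cxcl5* and *Cxcl1* responded in each genotype, by 5.01 and 4.99 in wild-type, 4.67 and 5.63 in *Lkb1*-/-, 4.56 and 4.75 in clone A1 and 4.38 and 5.35 in clone A2, and none of these differences from wild-type was called. *Ccl2* responded by 2.44 in wild-type and by 1.32 in clone A1, a called difference (edgeR FDR = 0.000888). In clone A2 it responded by 1.86, a difference called with the block (edgeR FDR = 0.00252) and not without it (0.109).

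**Figure D5:**
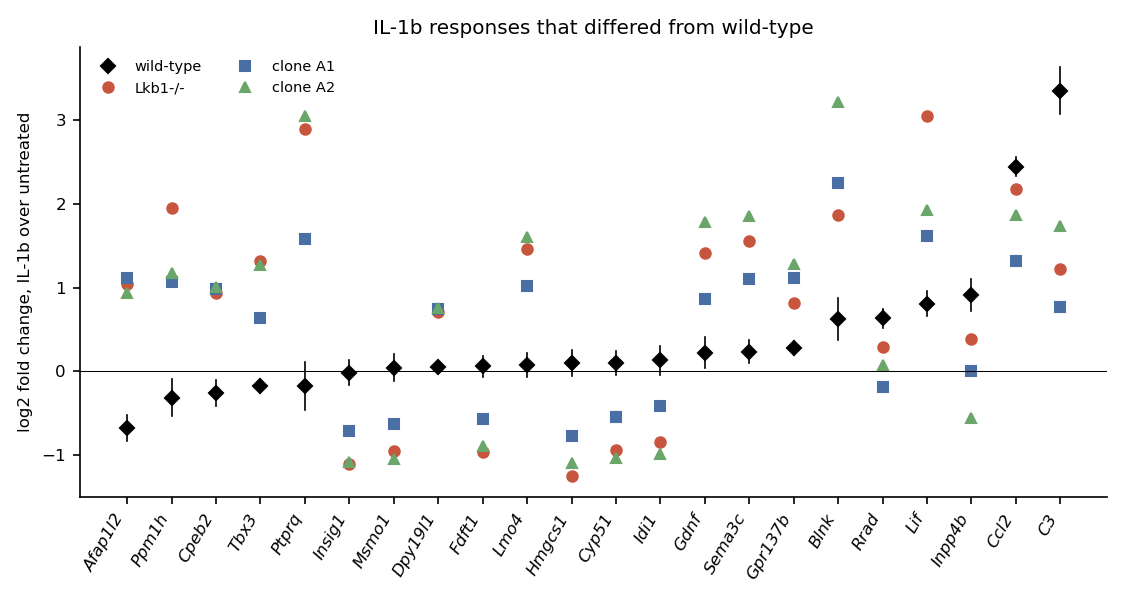
Log2 fold change with IL-1β of the 22 genes whose response differed from wild-type by the rule for named genes, in order of the wild-type value (black, with a bar of 1 SE), beside *Lkb1*-/- MEFs (red) and clones A1 (blue) and A2 (green). *C3* stands highest in wild-type at 3.344, and the cholesterol genes lie near 0 in wild-type and below 0 in the other genotypes.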

How the data were processed

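RNA-seq reads of 24 libraries were trimmed with Trim Galore 0.6.0 and aligned with STAR 2.7.8a per the submitters' processing notes, on GRCm38 with GENCODE annotation. The authors deposited STAR gene counts, whole numbers that were not normalized, for 55471 genes. Lines that name no gene held 28.3 to 31.0% of each wild-type library's total and were left out. The fourth column, which counts the second read's strand, held 95.6 to 95.9% of the stranded gene counts and was used. The labels and the methods name different library kits. Symbols were taken from GENCODE M21, which matched 55144 of the 55471 IDs.

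Counts were fitted with edgeR 4.0.16 in R 4.3.3 (TMM, filterByExpr with a minimum of 10 counts and a total of 15, quasi-likelihood test, Benjamini-Hochberg adjustment) over all 24 libraries with 1 mean per group, which left 17522 genes. Genes with an FDR below 0.05 are those called. Differences of responses were contrasts in this fit. The alternatives were DESeq2 1.42.0, other scalings and filters, unstranded counts, the wild-type libraries alone, a replicate block and leaving out each wild-type library. Deviations from the group means correlated within replicate numbers at 0.33, 0.13 and 0.29 in wild-type libraries and at no more than 0.0026 across numbers. Deviations sum to 0 within a group, so these correlations are not independent of each other. The block takes the numbers to pair libraries. The main fit had no block, and calls are without it unless the block is named. The labels state no shared batch. The script was tested on simulated data.

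The members and gene lists were chosen with earlier results of these data known. Text names called list members with values and others by value alone, up to 15 genes a direction with the largest change, no overlap between groups and a mean above 1 in log2 CPM, and for differences of responses up to 5 genes a direction. Promoters came from RefSeq (GRCm38.p6).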

Additional observations from a re-analysis of the deposited data

Results flagged for a closer look

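The results below were picked out because the test of the difference between 2 genotypes' responses was called (edgeR FDR under 0.05). The 3 comparisons share the wild-type libraries, so they are not independent of each other. Values are the response in the other genotype minus that in wild-type MEFs, on the log2 scale.

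Between *Lkb1*-/- and wild-type MEFs the difference was 3.06 for *Ptprq*, 2.26 for *Ppm1h*, 2.24 for *Lif*, 1.72 for *Afap1l2* and 1.49 for *Tbx3*. It was −2.12 for *C3*, −1.35 for *Hmgcs1*, −1.08 for *Insig1*, −1.04 for *Cyp51* and −1.02 for *Fdft1*, the last 4 of them genes of cholesterol synthesis or its control. *Insig1* and *Cyp51* were not called in 4 of the 6 fits that left out 1 wild-type library, those without untreated replicate 1 or 3 or stimulated replicate 2 or 3 (edgeR FDR up to 0.109 and 0.117).

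Between clone A1 and wild-type MEFs it was 1.79 for *Afap1l2*, 1.24 for *Cpeb2*, 0.84 for *Gpr137b*, 0.81 for *Tbx3* and 0.70 for *Dpy19l1*, and −2.58 for *C3*, −1.12 for *Ccl2* and −0.82 for *Rrad*. *Cpeb2* was lost in each of the 6 such fits (edgeR FDR up to 0.109) and *Rrad* in all but that without untreated replicate 2 (up to 0.142). *Rrad* was also not called with unstranded counts, DESeq2 size factors, the newer edgeR method or no filter on low counts.

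Between clone A2 and wild-type MEFs it was 2.59 for *Blnk*, 1.62 for *Sema3c*, 1.61 for *Afap1l2*, 1.56 for *Gdnf* and 1.53 for *Lmo4*, and −1.47 for *Inpp4b*, −1.19 for *Hmgcs1*, −1.13 for *Cyp51*, −1.12 for *Idi1* and −1.08 for *Msmo1*. *Idi1* and *Msmo1* were lost in each of the 6 fits (edgeR FDR up to 0.146 and 0.128), *Hmgcs1* and *Cyp51* without untreated replicate 1 or stimulated replicate 2 or 3 (up to 0.0762 and 0.0556), *Inpp4b* without untreated replicate 3 or stimulated replicate 1 or 3 (up to 0.0733) and *Blnk* without stimulated replicate 2 (0.0505). *Gdnf* was not called with unstranded counts, *Inpp4b* with the newer edgeR method, *Msmo1* with DESeq2 size factors, upper quartile scaling or at least 10 counts in every library, and *Idi1* with any of these 5.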

How the results depend on the processing

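None of the 116 called genes among the 147 followed by name changed direction under those of the 17 alternatives that tested it, though the filter of 10 counts in every library and the fits of the wild-type libraries alone left some genes untested. The number of genes called in wild-type MEFs was 396, and became 621 with DESeq2, 954 with no filter on low counts, 1629 with the replicate block and 4010 with the block in the 6 wild-type libraries alone. The higher calls became 511 with no filter, 824 with the block and 2108 with the block in 6 libraries. The lower calls became 228 with upper quartile scaling, 292 with DESeq2, 443 with no filter, 203 with at least 10 counts in every library, 805 with the block and 1902 with the block in 6 libraries. Without both libraries numbered 3, chosen after seeing the data, the calls were 226, of which 169 higher and 57 lower, and 203 were among the 396. The cause was not tested. Leaving out 1 wild-type library gave 209 to 432 calls, 165 to 262 higher, 44 to 170 lower, 57 to 95 called list genes, 28 to 39 differences for *Lkb1*-/- MEFs, 11 to 13 for clone A1 and 29 to 60 for clone A2. Without untreated replicate 2 the calls were 209, of which 208 were among the 396. The list genes called became 178 with no filter and 174 with the block. The replicate block removed no call. Of 144 called results followed by name, differences of responses included, 85 stayed called in every fit that left out 1 wild-type library.

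Responses that differed from wild-type in *Lkb1*-/- MEFs became 76 with upper quartile scaling, 112 with DESeq2, 347 with no filter, 70 with 10 counts in every library, 311 with the common block and 1003 with a block within each genotype. In clone A1 they became 47 with DESeq2, 257 with no filter, 110 with the common block and 559 with a block within each genotype, and in clone A2 141, 394, 378 and 1020. The share of promoters of higher genes with the NF-κB letters was 3.4% with A required as the fourth base of the motif, against 9.36%, where all tested genes had 0.424% against 1.72% and lower genes 0.0% against 0.84%. With the 6 wild-type libraries alone 24 of the named genes lost their call and 12 gained one, of 143 that it tested. Of the genes described here the losses were *Cxcl10*, *Cxcl11*, *Fat4*, *Gbp3*, *Glt8d2*, *Jup*, *Lmod1*, *Mcam*, *Rab3il1*, *Scnn1a*, *Scx*, *Sema3b*, *Serping1* and *Tpm2*. The gains were *C1ra*, *Cnn2*, *Csf1*, *Il1rap*, *Mt1*, *Pde4d*, *Rel*, *Sik1* and *Timp2*. Calls were also lost for *Ccl8*, *Cxcl11* and *Il1a* with DESeq2, *Atf3* and *Gbp3* with unstranded counts, *Atf3* with no filter and *Mmp13* with the newer edgeR method. *Ccl8* and *Il1a* rest on at most 12 and 13 counts in a library.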

Other observations

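Receptors and sensors outside the lists also rose in wild-type MEFs and were chosen after their values were seen. *Tlr2*, a receptor for bacterial lipoproteins, stood at 20.4, 25.8 and 26.8 CPM untreated and 36.8, 53.3 and 66.7 CPM after IL-1β (log2 fold change 1.10, SE 0.24, edgeR FDR = 0.014), and was lost without untreated replicate 1 or 2 or stimulated replicate 3 (edgeR FDR up to 0.0935). *Ripk2*, a kinase downstream of the NOD receptors, went from 29.4, 28.5 and 26.8 to 54.5, 62 and 61.8 CPM (log2 fold change 1.07, SE 0.14, edgeR FDR = 6.33e-05), and *Casp4*, an inflammatory caspase, from 9.15, 11.4 and 14.6 to 27.6, 36.6 and 46.1 CPM (log2 fold change 1.65, SE 0.22, edgeR FDR = 7.00e-05). *Il13ra2*, a decoy receptor of IL-13, had 0 untreated counts and 24, 24 and 29 after IL-1β, at least 8.88-fold higher. *Osmr*, the oncostatin M receptor, rose by 0.67 (edgeR FDR = 0.00538, and 0.0554 without untreated replicate 2). *Fgf7*, a growth factor for epithelial cells, rose from 1.05 ± 0.335 to 2.79 ± 0.535 CPM (log2 fold change 1.41, SE 0.22, edgeR FDR = 0.000587).

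Of the genes that fell, 3 more are given, also chosen after their values were seen. *Scx*, scleraxis, a tendon transcription factor, stood at 19.4, 27.4 and 29.6 CPM untreated and 13.1, 16.9 and 18.5 CPM after IL-1β (log2 fold change -0.65, SE 0.13, edgeR FDR = 0.00416), and was not called with the wild-type libraries alone (edgeR FDR = 0.136). *Prrx2*, a mesenchymal homeobox gene, went from 17, 20.1 and 17.3 to 9.01, 10.8 and 11.4 CPM (log2 fold change -0.80, SE 0.18, edgeR FDR = 0.0136), and was lost without untreated replicate 2 or stimulated replicate 1 (edgeR FDR up to 0.0922). *Sema3a*, a guidance cue, fell from 105, 124 and 116 to 64, 78.1 and 75.2 CPM (log2 fold change -0.67, SE 0.10, edgeR FDR = 0.000347).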
